A study of Homo sapiens with 9 samples.

Results

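The 73 cytosolic ribosomal protein genes measured here were followed across 9 Affymetrix PrimeView arrays of Y79 cells, an established human retinoblastoma line. They were chosen by name: symbols of the RPL and RPS families with a number, the stalk proteins RPLP0, RPLP1 and RPLP2, and RPSA, without the S6 kinases, RPS19BP1, RPS27L and pseudogenes. Only probe sets annotated to 1 symbol were used, which gave 189 probe sets for 73 of the 18132 genes tested. The genes were 64 of 77 listed canonical ribosomal proteins (23 of the small and 41 of the large subunit) and 9 paralogs, which are copies or relatives encoded elsewhere in the genome. The other 13 canonical genes, RPSA and RPLP0 among them, are not analysed here as single genes.

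The arrays fell into 3 groups of 3: gold nanoparticles conjugated to a peptide named for HDM2 (GNPs-HDM2), the bare gold nanoparticles (GNPs), and no treatment (Control). All groups were the same line in RPMI medium, with no engineered allele named in the labels. No source names the dose, the exposure time or the cultures behind the arrays. The p-values therefore reflect array-to-array spread alone, part or all of which may be technical. The study's stated interest was a peptide conjugate against the binding of p53 to HDM2, the ubiquitin ligase encoded by MDM2.

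Ribosomal proteins coat the ribosomal RNAs of the small and large subunits, and growing cells make them in matched amounts. RPL5 and RPL11 travel with the 5S ribosomal RNA as a small complex that is built into the large subunit. When ribosome assembly is disturbed, the free complex binds HDM2 and blocks it, which lets p53 accumulate, and several other ribosomal proteins can bind HDM2 as well. Ribosomal protein mRNAs are among the most abundant of a cell and usually start with a 5′ terminal oligopyrimidine (TOP) tract, a C followed by further pyrimidines, through which growth signals control their translation.

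The TOP tract is shown because it is the sequence feature that most members shared although the rule did not use it. A start was counted as TOP when its first base was C and the next 4 were each C or T, in the start windows of RefSeq on GRCh38.p14. Of 61 members with an annotated start there, 43 (70.5%) had such a start, against 1361 of 27244 other genes (5.0%). Among canonical members it was 41 of 54 (75.9%), with 15 of 20 for the small and 26 of 34 for the large subunit. Among paralogs it was 2 of 7. Each window below holds 15 bases before and 15 bases from the annotated start, 5′ to 3′, and the capitals mark the unbroken pyrimidine run from a C at the start. RPL11, of the 5S complex, is followed by those of the members of lowest and then of highest change with the conjugate for which a window is shown, and a gene with more than 1 annotated start has a line for each.
RPL11 (chr1:23691791-23691820, plus strand): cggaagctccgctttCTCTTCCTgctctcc
RPL11 (chr1:23691764-23691793, plus strand): cgcctcctggcccataaggccctcggccgg
RPL7L1 (chr6:42879601-42879630, plus strand): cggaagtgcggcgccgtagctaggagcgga
RPL26L1 (chr5:172958714-172958743, plus strand): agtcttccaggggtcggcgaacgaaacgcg
RPL26L1 (chr5:172958865-172958894, plus strand): ggcggggcggcggccacaaacccgcaggca
RPL36AL (chr14:49620612-49620641, minus strand): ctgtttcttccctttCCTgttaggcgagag
RPS14 (chr5:150449725-150449754, minus strand): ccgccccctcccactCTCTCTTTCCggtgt
RPL7A (chr9:133348203-133348232, plus strand): ccacaattccctttcCTTTCTCTCTCCTCC
RPL36 (chr19:5690280-5690309, plus strand): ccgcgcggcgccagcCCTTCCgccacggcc
RPL10L (chr14:46651767-46651796, minus strand): caggcgtagttaagagagcgcattttgact
The canonical genes RPL11, RPS14, RPL7A and RPL36 had a tract at 1 annotated start each, and the paralogs RPL7L1, RPL26L1, RPL36AL and RPL10L had none by this count. A match is only a description of these letters, since annotated starts can lie some bases from the start used in a cell. RPL5, RPL7, RPL39L and RPL3L are named without a window.

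The deposited values are log values, read as log2 since their base is not stated. Each is a difference from its probe set's own baseline, so 0 is that baseline and no value gives an absolute level. From the step size of the stored numbers each probe set was placed in a baseline class of 8 to 16, 4 to 8 or 2 to 4 log2 units, called bright, middle and dim. Of the members' 189 probe sets 139 were bright, 35 middle and 15 dim, against 8864, 24297 and 16087 of all probe sets tested. Of the bright ones 118 carry a suffix that marks possible matches to further transcripts, so their signal can include pseudogenes and gene copies. Between GNPs-HDM2 and Control arrays all bright probe sets had a median change of -1.19, all middle ones 0.12 and all dim ones 0.51. The hybridization controls, transcripts added in fixed amounts, averaged 1.98, 1.93 and 1.37 on the GNPs-HDM2 arrays, 0.13, -0.58 and 0.04 on the GNPs arrays, and -0.47, -0.47 and -0.34 on the Control arrays. Their part in the results on ribosomal protein genes was not tested. The photoreceptor lineage markers CRX and OTX2 and the oncogene MYCN had only bright probe sets, while none of the fibroblast, blood or pigment epithelium markers had a bright one. With the conjugate against Control, 5 of 8 photoreceptor and retinoblastoma markers fell (median -0.96). Of all genes 25.1% fell, and of genes on their bright probe sets 58.2%. Of the markers without a bright probe set, 3 of 5 for fibroblasts (median 0.49), 4 of 4 for blood (0.64) and 3 of 3 for pigment epithelium (0.68) rose, where 33.1% of all genes rose. Of 3 Mueller glia markers 1 fell and none rose. After centring each array within the baseline classes, 2 of 5 fibroblast, 1 of 4 blood and 1 of 3 pigment epithelium markers rose. Their medians were then 0.07, 0.15 and 0.41, and 23.6% of all genes rose on that scale. There 4 of the 8 photoreceptor and retinoblastoma markers fell (median -0.49), where 21.6% of all genes did. The part of all these markers in the results was not tested.

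On the bright scale, the mean of a gene's bright probe sets, 63 canonical genes could be followed array by array. Their median was -0.71, -1.02 and 0.04 on GNPs-HDM2 replicates 1, 2 and 3. It was 0.03, 0.01 and 0.00 on the GNPs arrays, and 0.11, 0.09 and 0.00 on the Control arrays. GNPs-HDM2 replicates 1 and 2 were low and replicate 3 was not: 61, 61 and 16 of the 63 genes lay below every Control array on them. On GNPs-HDM2 replicate 3 a further 35 genes lay within the Control range and 12 above it. The same counts per array over all bright genes are not given, so these do not set the ribosomal protein genes apart. All 3 GNPs-HDM2 values lay below all Control values in 20 of the 67 members with a bright probe set. Of all bright genes 54.3% had this order. Replicate 2 was below replicate 1, and replicate 3 was the highest GNPs-HDM2 array, for all 63 genes. The 5352 genes with a bright probe set had medians of -1.26, -1.72 and -0.28 on the 3 GNPs-HDM2 arrays, so the median of the ribosomal protein genes was the higher one on each of them. These relative values of bulk samples give neither the number of cells nor the RNA per cell, so these cannot be told apart. Causes of the low values, technical ones included, were not tested. Over the GNPs and Control arrays the medians of all bright genes stayed between 0.00 and 0.10. On the Control arrays they were 0.009, 0 and 0.026. The median of the ribosomal protein genes was thus also the higher one on Control replicates 1 and 2. It was the lower one on Control replicate 3 and on the GNPs arrays.

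**Figure D1:**
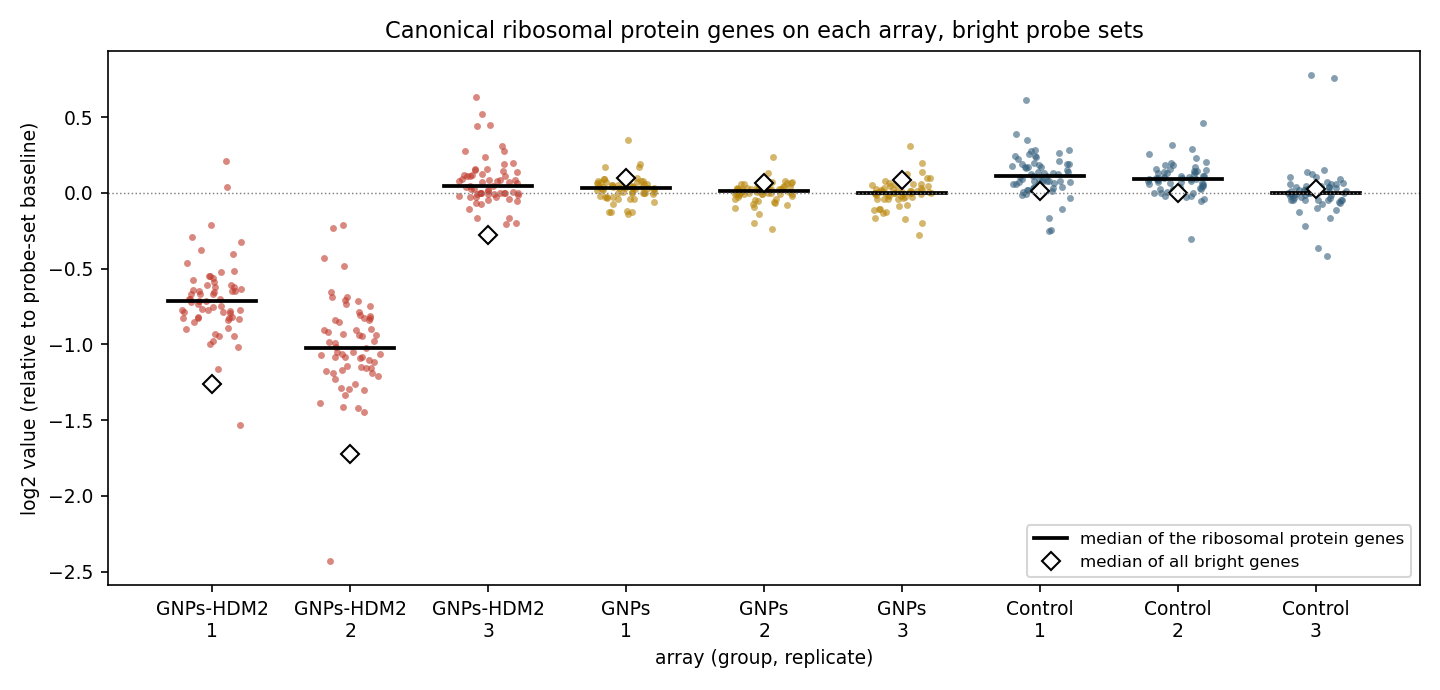
Values of the 63 canonical ribosomal protein genes with a bright probe set on each array, in log2 units relative to the probe-set baseline. Each point is a gene, the black line is the median over these genes and the diamond is the median over the 5352 bright genes; GNPs-HDM2 replicates 1 and 2 lie at medians of -0.71 and -1.02, while GNPs-HDM2 replicate 3 lies at 0.04, near the GNPs and Control arrays.

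Against untreated cells, 26 of the 73 genes fell with the peptide conjugate, 3 rose and 44 did not pass (limma on all 9 arrays, adjusted p under 0.05 over 18132 genes). Of all genes tested 25.1% fell and 33.1% rose. Their median change was -0.51, with a range from -1.97 to 1.23, and the median over all genes was 0.25. All 22 canonical genes that passed had fallen, by amounts between -1.06 and -0.58. Of the 64 canonical genes 63 had a change below 0, the exception being RPL36 at 0.15 with a standard error of 0.24 (limma adjusted p = 0.598). The adjusted p of the falls ran from 0.00511 to 0.0478, so many sat close to the threshold.

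The count of calls depended on GNPs-HDM2 replicate 3. Without it 59 members fell and 3 rose, where 31.8% of all genes fell, and all 26 genes that fell with it were among the 59. With the other alternatives that left out an array, between 6 and 16 of the 73 members passed. In these fits between 6524 and 9045 of the 18132 genes passed. With the replicate number as a block, 25 members fell, 24 of them shared, and RPL5 and RPL29 no longer passed (limma adjusted p = 0.0577 and 0.0508). RPL29, a large subunit protein, was picked out after its values were seen.

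**Figure D2:**
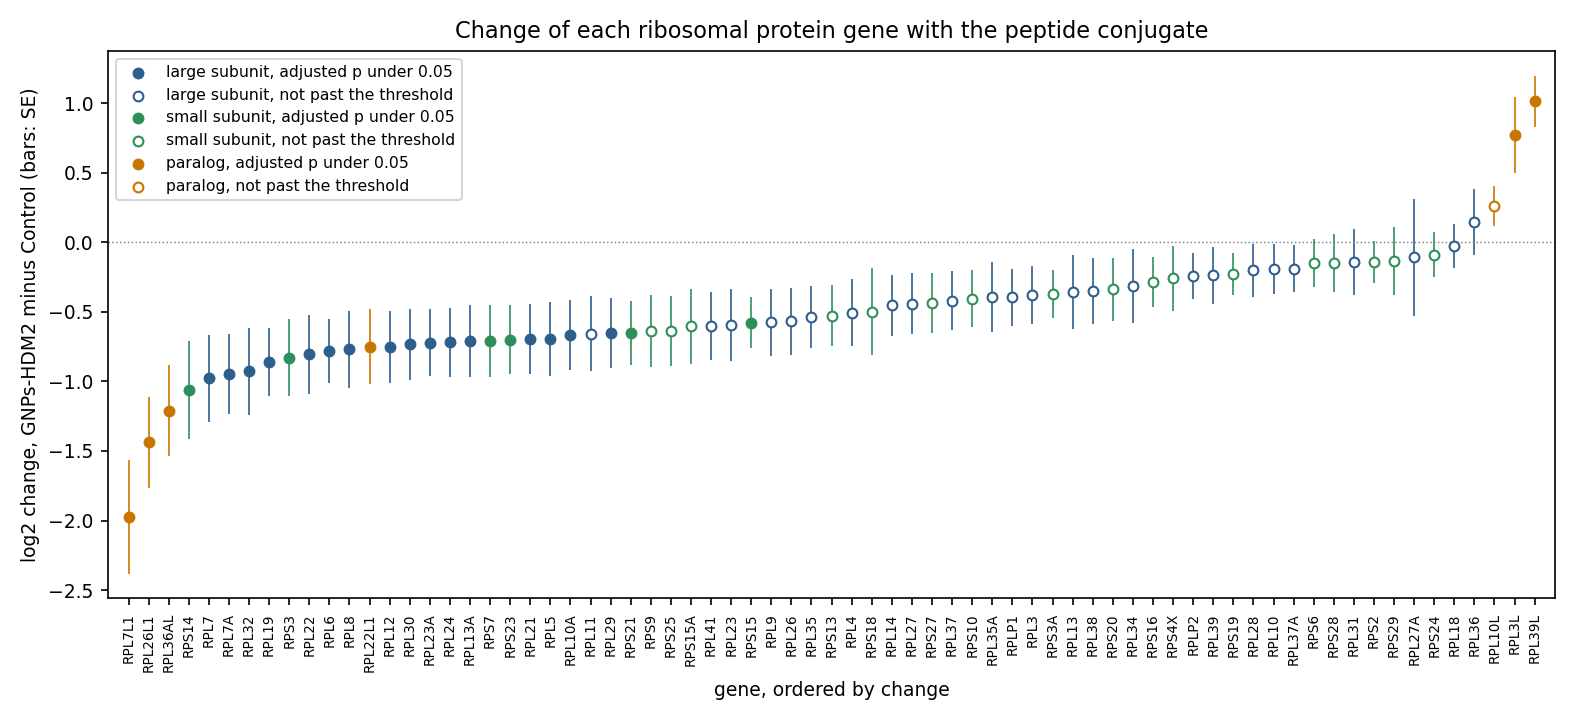
Log2 change between GNPs-HDM2 and Control arrays for 71 ribosomal protein genes (the Y-linked paralogs are not drawn), ordered by change, with bars of 1 standard error. Filled points passed an adjusted p under 0.05 in limma; the paralogs RPL7L1 at -1.97 and RPL39L at 1.02 stand at the ends, with the canonical genes between -1.06 and 0.15.

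RPL5 and RPL11, the pair that binds HDM2 as part of the 5S complex, had nearly the same values. RPL5 lay at -0.70, -1.08 and 0.12 on the GNPs-HDM2 arrays, at -0.06, -0.002 and -0.17 on the GNPs arrays, and at 0.19, 0.23 and 0.00 on the Control arrays. RPL11 lay at -0.72, -1.05 and 0.15 on the GNPs-HDM2 arrays, at -0.04, 0.01 and -0.08 on the GNPs arrays, and at 0.28, 0.10 and -0.03 on the Control arrays. In both genes GNPs-HDM2 replicates 1 and 2 were below every other array, and replicate 3 lay within the Control range, so the groups overlapped. RPL5 fell by 0.69 against Control with a standard error of 0.26 (limma adjusted p = 0.0458, n = 3 arrays each), and this call was lost in the fit with the replicate block. RPL11, with a change of -0.66 and a standard error of 0.27, did not pass (limma adjusted p = 0.0577). Both probe sets of each gene were bright. Those of RPL5 had changes of -0.74 and -0.65, and those of RPL11 of -0.71 and -0.60. Without GNPs-HDM2 replicate 3 the changes were -1.03 for RPL5 and -1.002 for RPL11, both past the threshold (limma adjusted p = 0.000198 and 0.000214).

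**Figure D3:**
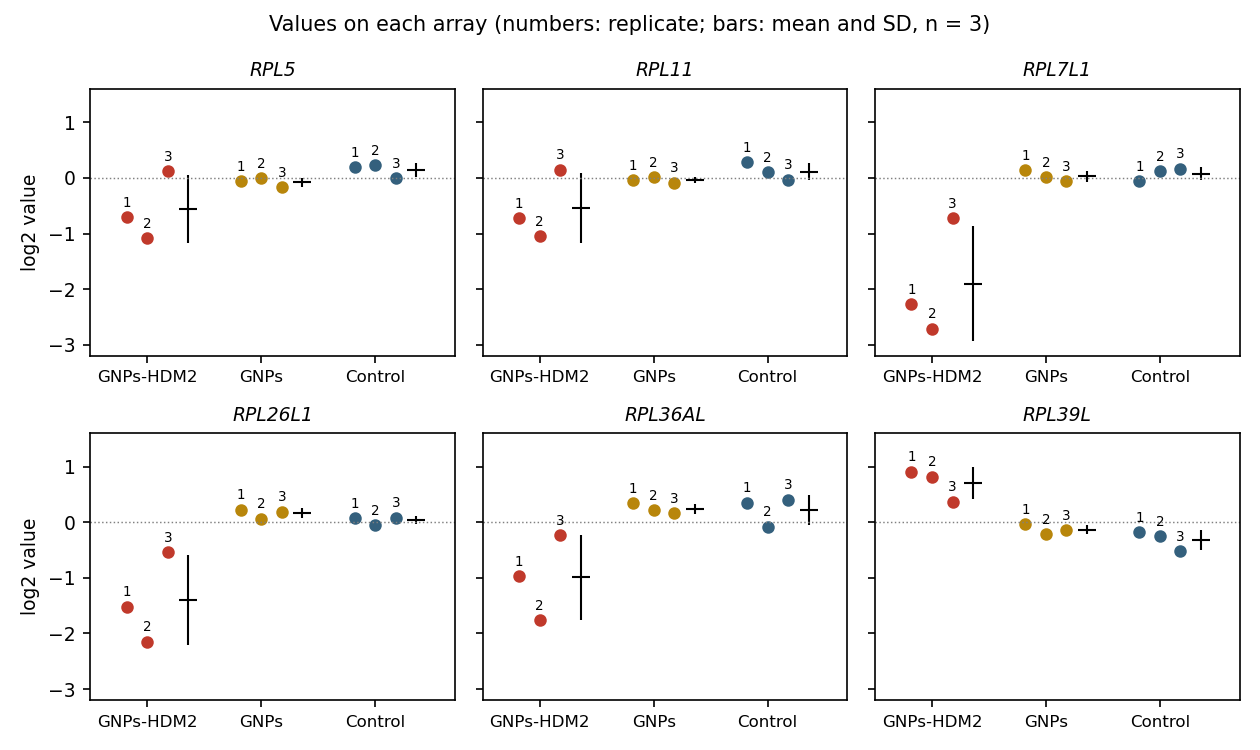
Values of RPL5, RPL11 and 4 paralogs on each array in log2 units, with the replicate number above each point and the mean and SD of each group (n = 3) as a bar. RPL5 and RPL11 show low GNPs-HDM2 replicates 1 and 2 and a replicate 3 at the Control level, while RPL7L1, RPL26L1 and RPL36AL are low on all 3 GNPs-HDM2 arrays and RPL39L is high on all 3.

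Of the 14 measured ribosomal proteins listed as HDM2-binding, 6 fell and none rose, with a median of -0.62, where 25.1% of all genes and 58.2% of genes on their bright probe sets fell. The 50 other canonical genes held 16 falls and a median of -0.42. On bright probe sets only, 5 of the 14 and 8 of 49 others fell, and the medians were closer, at -0.675 and -0.602. Against GNPs the bright medians were -0.549 for the list and -0.605 for the others. The difference between the list and the other genes was not tested. With all probe sets, the 6 falls in the list were RPS14, a protein of the small subunit platform, at -1.06, RPS3 at the mRNA entry channel at -0.83, RPL6 at -0.78, RPS7 at -0.71, RPL5 at -0.69 and RPS15 at -0.58. Besides RPL11, RPS25, RPL23, RPL26, RPL4, RPS27, RPL37 and RPS20 had changes between -0.64 and -0.34 and did not pass, and RPS26 and RPS27A were not analysed here as single genes. A bright probe set that RPS26 shares with a pseudogene had a change of -0.73 and did not pass (limma adjusted p = 0.0512 over probe sets). RPS14 varied among untreated arrays: it lay at -1.17, -1.29 and 0.04 on the GNPs-HDM2 arrays, at 0.35, 0.24 and 0.31 on the GNPs arrays, and at -0.25, 0.25 and 0.76 on the Control arrays. RPL6 was tighter, at -0.83, -1.18 and -0.16 on the GNPs-HDM2 arrays, at -0.03, 0.04 and 0.00 on the GNPs arrays, and at 0.10, 0.07 and 0.01 on the Control arrays. For RPL6 the GNPs-HDM2 arrays did not overlap the Control arrays, and the fall had a standard error of 0.23 (limma adjusted p = 0.0179).

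Of 6 genes listed as partners of the 5S complex and its target, 3 fell and none rose. Of all genes 25.1% fell, and of genes on their bright probe sets 58.2%, so the count does not set these genes apart. RRS1, which helps load the 5S complex onto the large subunit, fell by 1.92 with a standard error of 0.27 (limma adjusted p = 0.00155), and its partner RPF2 fell by 0.68 (adjusted p = 0.0387). HEATR3, which brings RPL5 into the nucleus, fell by 0.41 (adjusted p = 0.0468). MDM2 itself had a change of -0.35 (adjusted p = 0.0634) and MDM4, its relative, one of -0.29 (adjusted p = 0.426).

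In the small subunit 6 of 23 genes fell and none rose, with a median of -0.44, and the count is near the 25.1% of all genes that fell. Of the falls, 4 were the HDM2-binding RPS14, RPS3, RPS7 and RPS15. In the large subunit 16 of 41 fell and none rose, with a median of -0.57. On bright probe sets only, 8 of 40 large and 5 of 23 small subunit genes fell, where 58.2% of all bright genes did. The bright medians were -0.654 and -0.606. The difference between the subunits was not tested. With all probe sets, RPL7 was the lowest gene of the large subunit. It lay at -0.95, -1.42 and 0.00 on the GNPs-HDM2 arrays and at -0.12, 0.03 and -0.28 on the GNPs arrays. On the Control arrays it lay at 0.11, 0.46 and 0.00. Its fall was -0.98 with a standard error of 0.31 (limma adjusted p = 0.0245). RPL7A, an RNA-binding protein of the large subunit, lay at -1.02, -1.42 and -0.05 on the GNPs-HDM2 arrays, at 0.09, 0.01 and 0.07 on the GNPs arrays, and at 0.18, 0.11 and 0.06 on the Control arrays. In RPL7A all 3 GNPs-HDM2 values were below all others, and the fall was -0.95 with a standard error of 0.29 (limma adjusted p = 0.0208). RPL19 fell by 0.86 with a standard error of 0.24 (limma adjusted p = 0.0152), the smallest adjusted p of a canonical gene, and it too did not overlap with Control.

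RPL32, a large subunit protein, fell by 0.93 through probe sets that disagreed in size. A middle probe set of it fell by 1.84 (limma adjusted p = 0.0157 over probe sets). The mean of its bright ones had a change of -0.47 and did not pass (adjusted p = 0.179 over bright genes). At the other end, RPL36 lay at 0.21, -0.21 and 0.52 on the GNPs-HDM2 arrays, at -0.14, -0.24 and -0.13 on the GNPs arrays, and at 0.35, 0.15 and -0.42 on the Control arrays. Control replicate 3 was the lowest of all 9 arrays for RPL36 and GNPs-HDM2 replicate 3 the highest.

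The stalk, which recruits the elongation factors, was measured through its base protein RPL12 and through RPLP1 and RPLP2. RPL12 fell by 0.75 with a standard error of 0.26 (limma adjusted p = 0.0324). RPLP1 had a change of -0.39 with a standard error of 0.20 and RPLP2 one of -0.24 with a standard error of 0.16, and neither passed (limma adjusted p = 0.115 and 0.211). The single bright probe set of RPLP2 lay at -0.90, -1.19 and -0.17 on the GNPs-HDM2 arrays and at 0.06, 0.05 and 0.07 on the Control arrays, and it fell by 0.81. A middle one had a change of -0.25 and a dim one of 0.34, neither passed, and the gene mean holds all 3. Of 13 measured genes mutated in Diamond-Blackfan anaemia, a failure of red cell production, 2 fell, with a median of -0.40, and of the other 51 canonical genes 20 fell. Of all genes 25.1% fell, and of genes on their bright probe sets 58.2%. On bright probe sets only, 2 of the 13 and 11 of 50 others fell, with medians of -0.569 and -0.645. The difference was not tested.

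The paralogs held both ends of the ranking. RPL7L1, a relative of RPL7 that acts in ribosome assembly, lay at -2.27, -2.71 and -0.73 on the GNPs-HDM2 arrays, at 0.14, 0.02 and -0.06 on the GNPs arrays, and at -0.06, 0.12 and 0.16 on the Control arrays. All 3 GNPs-HDM2 values were below all others, and the fall was -1.97 with a standard error of 0.41 (limma adjusted p = 0.00511). RPL26L1, a close copy of RPL26, lay at -1.52, -2.15 and -0.54 on the GNPs-HDM2 arrays, at 0.23, 0.06 and 0.19 on the GNPs arrays, and at 0.07, -0.05 and 0.08 on the Control arrays. It fell by 1.44 with a standard error of 0.33 (adjusted p = 0.00717), again without overlap. RPL36AL, a copy of RPL36A, fell by 1.21 with a standard error of 0.33 (adjusted p = 0.0129). Its values were -0.97, -1.76 and -0.23 on the GNPs-HDM2 arrays, 0.35, 0.21 and 0.17 on the GNPs arrays, and 0.35, -0.08 and 0.41 on the Control arrays.

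RPL22L1, the relative of RPL22, fell by 0.75 as the mean of a bright and a dim probe set (adjusted p = 0.0364). The bright one alone lay at -1.91, -2.59 and -0.70 on the GNPs-HDM2 arrays, at 0.00, 0.22 and 0.04 on the GNPs arrays, and at 0.46, 0.03 and 0.48 on the Control arrays, and it fell by 2.05. These 4 paralogs were all the paralogs with a bright probe set, and each fell by more than the median bright gene, which changed by -1.14. Of the 63 canonical genes 62 lay above that median, and the exception was RPL35A, whose bright probe set fell by 1.46 (picked out after its values were seen). That probe set lay at -1.53, -2.43 and -0.197 on the GNPs-HDM2 arrays. On the Control arrays it lay at -0.255, -0.302 and 0.777, so the groups overlapped. The mean of all 3 probe sets of RPL35A had a change of -0.395 and did not pass (limma adjusted p = 0.188). RPL7L1 fell by 2.46 on the bright scale, and its relative RPL7 by 0.98.

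The other paralogs had middle or dim probe sets only. RPL39L, a testis-enriched copy of RPL39, lay at 0.91, 0.82 and 0.37 on the GNPs-HDM2 arrays, at -0.04, -0.21 and -0.15 on the GNPs arrays, and at -0.18, -0.25 and -0.52 on the Control arrays. Its GNPs-HDM2 values were above all others, and it rose by 1.02 with a standard error of 0.18 (adjusted p = 0.00328). RPL3L, the muscle form of RPL3, lay at 0.81, 1.26 and 0.16 on the GNPs-HDM2 arrays, at -0.37, 0.03 and 0.29 on the GNPs arrays, and at 0.00, -0.17 and 0.09 on the Control arrays. It rose by 0.77 with a standard error of 0.27 (adjusted p = 0.036), although 1 GNPs array lay above the lowest GNPs-HDM2 array. RPL10L, a testis form of RPL10, had a change of 0.26 and did not pass (adjusted p = 0.133). Each of these 3 genes rested on 1 probe set, and the remaining rise was of a Y-linked paralog with dim probe sets, for which no values are given.

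Within the ribosomal protein genes, the change followed the baseline class of the probe set. Of 139 bright probe sets 50 fell and 1 rose, with a median of -0.64, where 61.3% of all bright probe sets fell. Of 35 middle ones 4 fell and 7 rose, with a median of 0.11, where 25.4% of all middle probe sets fell and 25.7% rose. Of 15 dim ones none fell and 5 rose, with a median of 0.38, and 33.8% of all dim probe sets rose, so the dim count is like that of the class as a whole. The medians over all middle and dim probe sets were close to those of the members, at 0.12 and 0.51, while the median over all bright ones was lower, at -1.19. In 29 genes with both bright and other probe sets, the other ones had the higher change in 24, with medians of 0.14 for the other and -0.57 for the bright ones. For 40 genes with several bright probe sets, the changes of these spanned a median of 0.13, and the span was under 0.3 in 31 of them. The gene RPL28, picked out after its values were seen, showed a wide span: 5 of its bright probe sets had changes of -0.95 to -0.75, and a further one rose by 0.80 (limma adjusted p = 0.0141 over probe sets).

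**Figure D4:**
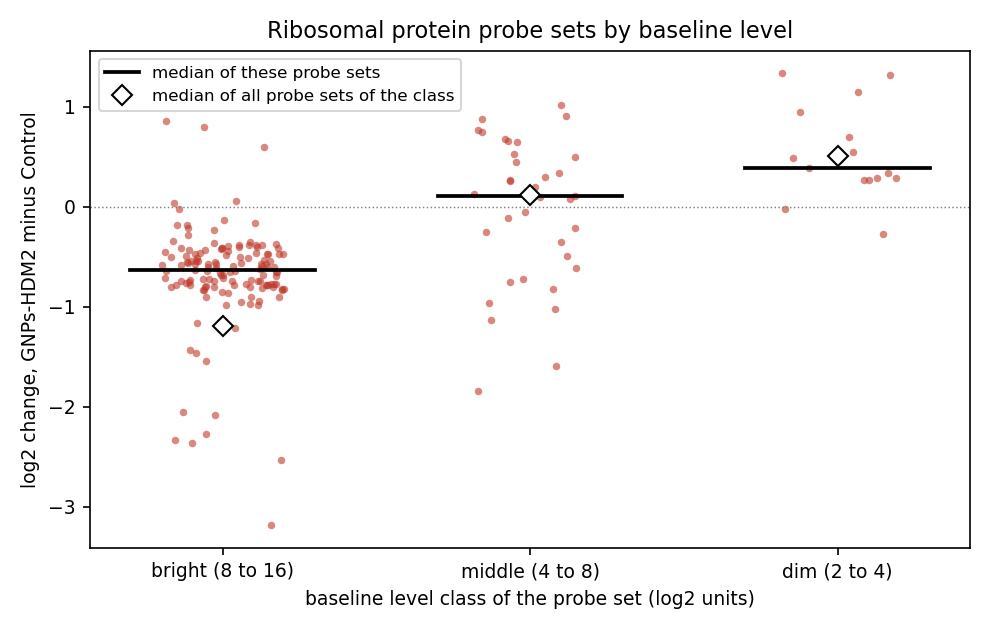
Log2 change between GNPs-HDM2 and Control arrays for the 189 probe sets of ribosomal protein genes, split by baseline class. Each point is a probe set, the line is the median of these probe sets and the diamond that of all probe sets of the class; the lines stand at -0.64, 0.11 and 0.38 and the diamonds at -1.19, 0.12 and 0.51 for the bright, middle and dim class.

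With bright probe sets only, 17 of 67 genes fell and none rose, against 58.2% of 5352 genes that fell (limma adjusted over these genes). The median was -0.65 for the members and -1.14 for all bright genes, and 62 of the 67 members lay above -1.14. In 20 of the 67, all GNPs-HDM2 values were below all Control values, where 54.3% of all bright genes had this order.

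Centring each array within each class turned the direction of most members. On that scale 42 of the 73 genes rose and RPL7L1 alone fell, where 23.6% of all genes rose and 21.6% fell. The median of the members was 0.42, against 0.07 for all genes, and of the 26 genes that fell as deposited 13 rose on the centred scale and 12 did not pass. RPL5 then rose by 0.45 with adjusted p = 0.024 and RPL11 by 0.49 with adjusted p = 0.0183 (limma). RPL36 had the highest centred change, 1.29 (adjusted p = 0.00371), and RPL7L1 the lowest, -1.06 (adjusted p = 0.0033). The directions given above are therefore those of the values as deposited, and the rises after centring are relative to genes of the same class on the same array. RPL39L and RPL3L rose on both scales, by 1.015 and 0.77 as deposited and by 0.96 and 0.71 after centring. Each rests on 1 probe set that is not bright, which centring moved little. Rising on both scales is thus no separate check for these genes.

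**Figure D5:**
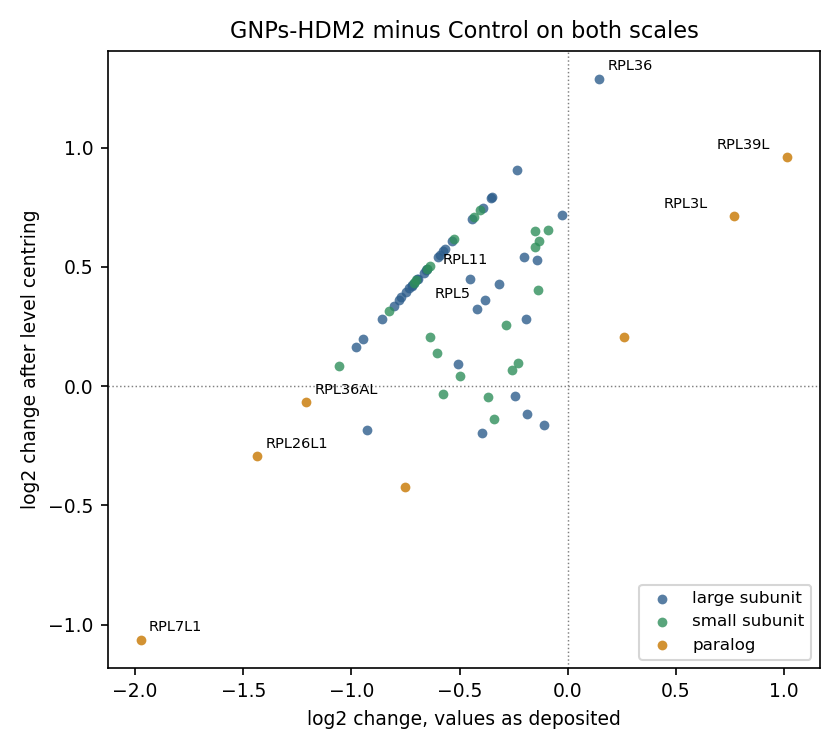
Log2 change between GNPs-HDM2 and Control arrays with the values as deposited (horizontal axis) and after centring each array within baseline classes (vertical axis) for 71 genes; each point is a gene. Most canonical genes lie at upper left, below 0 as deposited and above 0 after centring, while RPL7L1, at -1.97 and -1.06, is below 0 on both axes and RPL39L, at 1.02 and 0.96, is above 0 on both. RPL39L has no bright probe set, and centring moved it little.

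Bare nanoparticles against untreated cells gave no call among the 73 genes, and 0.0221% of all genes passed (limma). At an unadjusted p under 0.05 there was 1 member, RPL10L, at -0.46. The median change was -0.07, against -0.06 over all genes, and 51 of 64 canonical genes lay within 0.2 of 0. The highest changes were 0.61 for RPL27A, 0.18 for RPL39L, 0.13 for RPL26L1 and 0.08 each for RPS29 and RPS6. The lowest after RPL10L were -0.41 for RPS18, -0.35 for RPS16, -0.32 for RPL7, -0.30 for RPL32 and -0.30 for RPL10. RPL27A, with 1 middle probe set, lay at 0.51, 0.52 and 0.77 on the GNPs arrays and at -0.78, -0.46 and 1.22 on the Control arrays, and the groups overlapped through Control replicate 3. RPS18 lay at -0.35, -0.18 and -0.31 on the GNPs arrays and at 0.59, 0.31 and -0.52 on the Control arrays, also overlapping through replicate 3. In 16 of the 73 genes all GNPs values were below all Control values, a share like the 21.5% of all genes with that order. With array weights, which give noisier arrays less say, 14 members passed, 13 of them lower, but 34.2% of all genes passed in that fit. With quantile normalization 2 members passed, where 15.3% of all genes did. The median SD within a group over the members was 0.52 for GNPs-HDM2, 0.05 for GNPs and 0.11 for Control arrays.

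Between the conjugate and the bare particle, 20 of the 73 genes fell and 4 rose, with 29.1% of all genes falling and 43.2% rising (limma). The conjugate arrays are those of the comparison with Control, so both sets of values share them. The median was -0.44 for the members and 0.30 for all genes. The lowest were RPL7L1 at -1.93, RPL26L1 at -1.57, RPL36AL at -1.23, RPS14 at -1.10, RPL7A at -0.88 and RPL19 at -0.84, and each passed. RPL39L rose by 0.83, RPL3L by 0.76 and RPL10L by 0.72. RPL10L lay at 0.34, 0.48 and 0.34 on the GNPs-HDM2 arrays and at -0.35, -0.20 and -0.45 on the GNPs arrays, with no overlap (limma adjusted p = 0.0024). RPL36 had a change of 0.34 and did not pass (limma adjusted p = 0.212). RPL5, at -0.48, and RPL11, at -0.50, did not pass either (adjusted p = 0.125 and 0.112). After centring within classes both rose against the bare particle, by 0.73 and 0.71.

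Of 14 genes outside the rule that are known for TOP mRNAs, most of them translation factors, 11 fell and none rose with the conjugate against Control, with a median of -0.88. Of all genes 25.1% fell, and of genes on their bright probe sets 58.2% fell, with a median of -1.14. The tract was found in 8 of the 9 with an annotated start. The lowest were EIF4B, an activator of the initiation helicase, at -1.54, and the histone chaperone NAP1L1 at -1.36 (limma adjusted p = 0.0107 and 0.013). The highest were TPT1 at -0.31 and EEF1D, a subunit of the elongation factor exchange complex, at -0.09, and neither passed (adjusted p = 0.177 and 0.742). FAU, which encodes a small subunit protein fused to a ubiquitin-like part, fell by 0.70 (adjusted p = 0.0377). The difference between these genes and the ribosomal proteins was not tested. Among canonical genes on the bright scale, the 40 with a tract had a median change of -0.60 and the 13 with a start but no tract one of -0.71.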

How the data were processed

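Total RNA of Y79 cells was hybridized to PrimeView arrays, per the labels' protocols. The values deposited by the authors are log values, read as log2, each as a difference from a per-probe-set baseline; no label names the tool that summarized the probes. Probe sets were matched to symbols through GEO's platform annotation. Probe sets of 1 symbol were averaged per gene, and 102 array controls were left out. Of those naming a ribosomal protein gene, 38 carried several symbols (4 repeat the same one), 7 were pseudogenes and 3 noncoding, and all were left out. Members and gene lists were chosen with earlier results of these data known.

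All 9 arrays entered 1 fit in R 4.3.3 with limma 3.58.1 (lmFit, eBayes, 2-sided), adjusted by Benjamini-Hochberg over 18132 genes at 0.05. The number of arrays limits the precision. The baseline class came from the binary step of the stored numbers on Control and GNPs arrays. The fit was tested on simulated data. Alternatives were quantile normalization, median centring, centring within classes, other probe-set summaries, trend and robust settings, array weights, no dim genes, 2 groups alone, each array left out, the replicate number as a block and, added after seeing the data, bright probe sets only.

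No label says whether the replicate numbers pair arrays across groups. For GNPs-HDM2 and Control, same-numbered deviations correlated weakly, by 0.156, 0.107 and 0.29. For GNPs and Control the values were -0.038, 0.001 and 0.067, and for GNPs-HDM2 and GNPs -0.056, 0.103 and 0.014. These values cannot decide whether the numbers mark pairs. The main fit used no pairing, and the replicate block is given as an alternative.

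Genes named are RPL5 and RPL11, the stalk, the HDM2-binding list, the paralogs that are not Y-linked and, in each comparison, the 6 members of highest and the 6 of lowest change, plus 2 at each end of partner lists. Others are said to be picked after their values were seen. Some genes are not reported here.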

Additional observations from a re-analysis of the deposited data

How the results depend on the processing

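Of the 29 members called for GNPs-HDM2 against Control, the count became 6 with quantile normalization, 58 with array weights, 17 with bright probe sets only, 6 with the 2 groups alone and 6 to 62 with each array left out in turn (62 without GNPs-HDM2 replicate 3). Of all genes 58.3% passed in the fit of the report, and 10.6%, 75.5%, 65.9% and 35.5% under the first 4 of these settings and 77.5% without GNPs-HDM2 replicate 3. With any other array left out, between 6524 and 9045 of the 18132 genes passed. Of the 24 called for GNPs-HDM2 against GNPs, it became 9, 53, 13, 11 and 8 to 58 under the same settings, and 55 with centring within classes. In this comparison 72.3% of all genes passed in the fit of the report, and 51.1%, 82.7%, 74.7% and 63.9% under the first 4 settings. With centring within classes it was 57.3%. Without GNPs-HDM2 replicate 3 it was 83.0%, and with any other array left out 59.4% to 70.4%. For GNPs against Control 2 passed with quantile normalization and 14 with array weights, against 0, where 15.3% and 34.2% of all genes passed. Centring within classes turned the median change to 0.423 for GNPs-HDM2 against Control and to 0.561 for GNPs-HDM2 against GNPs, and gave -0.127 for GNPs against Control; under every other setting tried the medians moved by less than the SD of the array medians within groups (root mean square over both groups compared). Of these, the median against Control was -0.324 with quantile normalization, and -0.334 and -0.762 without GNPs-HDM2 replicates 2 and 3. Against GNPs it was -0.176, -0.216 and -0.7. RPL5 against Control went to 0.449 with centring within classes and to -0.488 with quantile normalization, where it did not pass (limma adjusted p = 0.145). At -0.694 it also did not pass with the replicate block (adjusted p = 0.0577), bright probe sets only (0.0747) and the 2 groups alone (0.1), and leaving out arrays gave -1.031 to -0.432, past the threshold only without GNPs-HDM2 replicate 3. RPL11 against Control went to 0.487 with centring within classes. It passed at -0.821 with median centring, -0.656 with trend and robust settings and -0.831 with array weights, and leaving out arrays gave -1.002 to -0.401. Against GNPs, centring gave 0.731 for RPL5 and 0.705 for RPL11, array weights -0.636 and -0.686 (both past the threshold), and leaving out arrays -0.815 to -0.216 and -0.849 to -0.248. For GNPs against Control, RPL5 passed with array weights, at -0.278 (adjusted p = 0.0295). The causes were not tested. The replicate block moved no other count by over 1.5 times. Signal over background limits dim and middle probe sets, on which RPL39L, RPL3L, RPL10L and RPL27A rest.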
